A study of Mus musculus with 12 samples.

Results

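The genes described here are the transcription factor NRF2 (Nfe2l2), its inhibitor KEAP1 (Keap1) and 8 enzymes of the antioxidant response (Srxn1, Txnrd1, Nqo1, Cbr3, G6pdx, Pgd, Tkt and Taldo1). They were chosen by name, with earlier results of these data known, and found by Entrez Gene ID. They are 10 of the 24532 genes in the deposited tables, and all 10 passed the filter on low values. Total RNA from kidneys of mice fasted overnight was sequenced in 12 libraries, 3 in each of 4 groups. The groups were FXR KO mice (strain label Nr1h4tm1Gonz/J, a targeted disruption of Nr1h4) given GW4064, FXR KO mice given vehicle, wild-type C57BL/6 mice given GW4064, and wild-type C57BL/6 mice given vehicle. Nr1h4 encodes the bile acid receptor FXR, and GW4064 is a synthetic FXR agonist, given 6 h earlier according to the labels of the GW4064 libraries. The labels give neither age nor sex, and no library was labelled as given cisplatin, the drug named in the series title. Separate animals are not named for replicates either, and each p-value therefore reflects variation among libraries, which may be technical.

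KEAP1 is an adaptor that holds NRF2 in the cytoplasm and presents it to a CUL3 ubiquitin ligase, so that NRF2 is degraded as fast as it is made. Oxidants and electrophiles modify cysteines of KEAP1, NRF2 escapes to the nucleus, and with a small MAF protein it binds antioxidant response elements (AREs) in front of its target genes. Some of the targets here repair and reduce oxidised protein and quinones, and G6pdx and Pgd make NADPH that this work consumes. Tkt and Taldo1 belong to the non-oxidative branch of the pentose phosphate pathway, which returns pentoses to glycolysis. In kidney NRF2 is known for protection of the proximal tubule. NRF2 is controlled mainly at the protein level, and a transcript level does not measure it.

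The ARE is the sequence that NRF2 binds, so the bases before the starts of the 10 genes were searched for it. The letters TGACNNNGC (the ARE core) and TGANTCAGC (a version shared with the factor NF-E2, which overlaps the first where N is C) were sought on both strands in the 250 bases before each RefSeq start on GRCm38.p6, the assembly also called mm10. All 10 genes had a RefSeq start, with 13 start windows between them. The core was found in 3 of the 13 windows, against 10.2% of 32851 windows of all genes, and the second motif in 1 of 13, against 1.02%. The inverted repeat of AGGTCA spaced by 1 base, a binding motif of FXR with its partner RXR, was in 0 of the 13 windows and in 0.00609% of all windows. A match is a description of letters and not a shown binding site. The windows that hold a match follow, 5′ to 3′ on the strand of the gene, with the matched letters in capitals. They are Srxn1 (chr2:152105274-152105523, plus strand), the middle of 3 Txnrd1 starts (chr10:82858956-82859205, plus strand), G6pdx (chrX:74428881-74429130, minus strand) and Nfe2l2 (chr2:75704664-75704913, minus strand).
Srxn1: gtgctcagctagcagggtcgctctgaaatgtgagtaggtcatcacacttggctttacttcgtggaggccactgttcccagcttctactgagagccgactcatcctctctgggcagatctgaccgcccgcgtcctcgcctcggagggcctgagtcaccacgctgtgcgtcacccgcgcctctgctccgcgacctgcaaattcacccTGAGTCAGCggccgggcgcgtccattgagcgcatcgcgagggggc
Txnrd1: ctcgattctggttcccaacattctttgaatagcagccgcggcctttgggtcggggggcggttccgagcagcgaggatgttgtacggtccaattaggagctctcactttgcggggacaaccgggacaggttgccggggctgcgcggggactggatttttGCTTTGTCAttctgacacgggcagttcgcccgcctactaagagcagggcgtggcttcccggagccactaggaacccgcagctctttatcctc
G6pdx: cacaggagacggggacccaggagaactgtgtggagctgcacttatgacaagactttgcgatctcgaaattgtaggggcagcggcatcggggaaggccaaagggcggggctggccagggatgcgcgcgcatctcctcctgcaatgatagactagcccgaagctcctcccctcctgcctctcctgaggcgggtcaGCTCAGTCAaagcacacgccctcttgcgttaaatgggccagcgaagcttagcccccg
Nfe2l2: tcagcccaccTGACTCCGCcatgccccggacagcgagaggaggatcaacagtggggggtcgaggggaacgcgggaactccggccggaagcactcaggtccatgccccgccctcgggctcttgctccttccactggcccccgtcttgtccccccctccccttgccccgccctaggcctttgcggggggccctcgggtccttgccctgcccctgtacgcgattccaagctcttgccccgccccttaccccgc
The match of Srxn1 began 45 bases before the start, that of G6pdx 57 bases, that of Txnrd1 92 bases and that of Nfe2l2 240 bases before it. Those of Txnrd1 and G6pdx lie on the opposite strand. As the next paragraphs show, all genes with a match (Srxn1, Txnrd1, G6pdx, Nfe2l2) were called higher in the knockout under GW4064. Of those without one in this window, Nqo1, Cbr3, Pgd and Tkt were called higher too, and Keap1 and Taldo1 were not called. Bases outside the window were not searched, and a link between matches and differences was not tested.

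The libraries held 2.86 to 4.27 mapped gigabases and 16693 to 17186 genes above 0 TPM. TPM is transcript abundance scaled for gene length and library total, meant for comparing levels between genes. A limit for Nfe2l2 and Txnrd1 is given under the processing. Kidney markers were present in each library, with summed levels of 10 proximal tubule genes from 55497 to 71797 TPM, while 3 adrenal cortex markers summed to 2.12 TPM or less. Nr1h4 ranged over 105 to 134 TPM in knockout GW4064, 113 to 119.9 in knockout vehicle, 189 to 242 in wild-type GW4064 and 217 to 267 TPM in wild-type vehicle libraries. It was lower in the knockout by the fit (log2 -0.78 ± 0.11 under GW4064 and -1.06 ± 0.11 on vehicle, limma adjusted p = 0.000439 and 0.000189), and a value per gene does not show which exons the remaining reads come from. In bulk tissue, fewer cells of a type and less RNA per cell cannot be told apart. Markers of 4 fat genes varied within groups, with sums of 9.25 to 30.1 TPM in knockout GW4064, 4.11 to 32.1 in knockout vehicle, 1.503 to 37.0 in wild-type GW4064 and 20.3 to 30.5 TPM in wild-type vehicle libraries.

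Knockout and wild-type kidneys differed in 8 of the 10 genes under GW4064 and in 5 on vehicle. Under GW4064, 8 of the 10 genes were higher in knockout than in wild-type kidneys and 0 were lower (limma, Benjamini-Hochberg adjusted p under 0.05). Of 14488 genes tested, 18.5% were called in that comparison, 7.08% higher and 11.4% lower. In each of the 8 genes all 3 knockout GW4064 libraries lay above all 3 wild-type GW4064 libraries, a pattern found in 14% of all genes. On vehicle, 4 genes were higher (Nfe2l2, Srxn1, Txnrd1, Cbr3) and 1 was lower (Tkt), against 3.19% higher and 9.73% lower over all genes. Averaged over both treatments, 7 of 10 were higher in the knockout and 0 lower, against 26.5% of all genes called, 7.49% higher and 19% lower. The median log2 difference of the 10 genes, knockout minus wild type, was 0.53 under GW4064 and 0.20 on vehicle, while that of all genes was -0.03 and -0.09. Scaling by the median of ratios turned the calls over all genes into 1250 higher and 1309 lower under GW4064 (1026 and 1651 as deposited), and 833 higher and 539 lower on vehicle (462 and 1410 as deposited). For the average over treatments it became 1623 higher and 1528 lower (1085 and 2753 as deposited). Summed cell type markers moved with genotype as well. All listed markers were found, and the lists named here are those whose sums did not overlap between the groups. Under GW4064 the thick ascending limb sum (3 genes) was 4752 to 4984 TPM in knockout and 5232 to 5291 TPM in wild-type libraries, and the podocyte sum (3 genes) 121 to 129 and 139 to 144 TPM. The endothelial sum (3 genes) was 139 to 144 TPM in knockout and 147 to 154 TPM in wild-type libraries, and that of macrophages and leukocytes (4 genes) 53.6 to 59.1 and 64.3 to 64.8 TPM. On vehicle the proximal tubule sum (10 genes) was higher in the knockout, at 59885 to 71797 TPM against 55497 to 56268 TPM in the wild type. Most of that sum is Kap, at 47901 to 63992 TPM over the 12 libraries, with Slc34a1 next at 2217 to 3087 TPM. It therefore does not show how the remaining proximal tubule markers moved. Lower in knockout vehicle than in wild-type vehicle libraries were the sums of the thick ascending limb (5057 to 5183 against 5224 to 5287 TPM), distal convoluted tubule (2 genes, 555 to 610.4 against 628 to 663 TPM) and principal cells (3 genes, 295 to 327 against 370.0 to 433 TPM). So were those of podocytes (115 to 129 against 153 to 160.1 TPM), endothelium (132.7 to 145.7 against 145.8 to 156 TPM) and red blood cells (3 genes, 27.1 to 33.5 against 39.6 to 1630 TPM). The part of these shifts in the values was not tested. These comparisons share libraries with those of GW4064 against vehicle, so their values are given side by side and not as separate evidence.

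**Figure D1:**
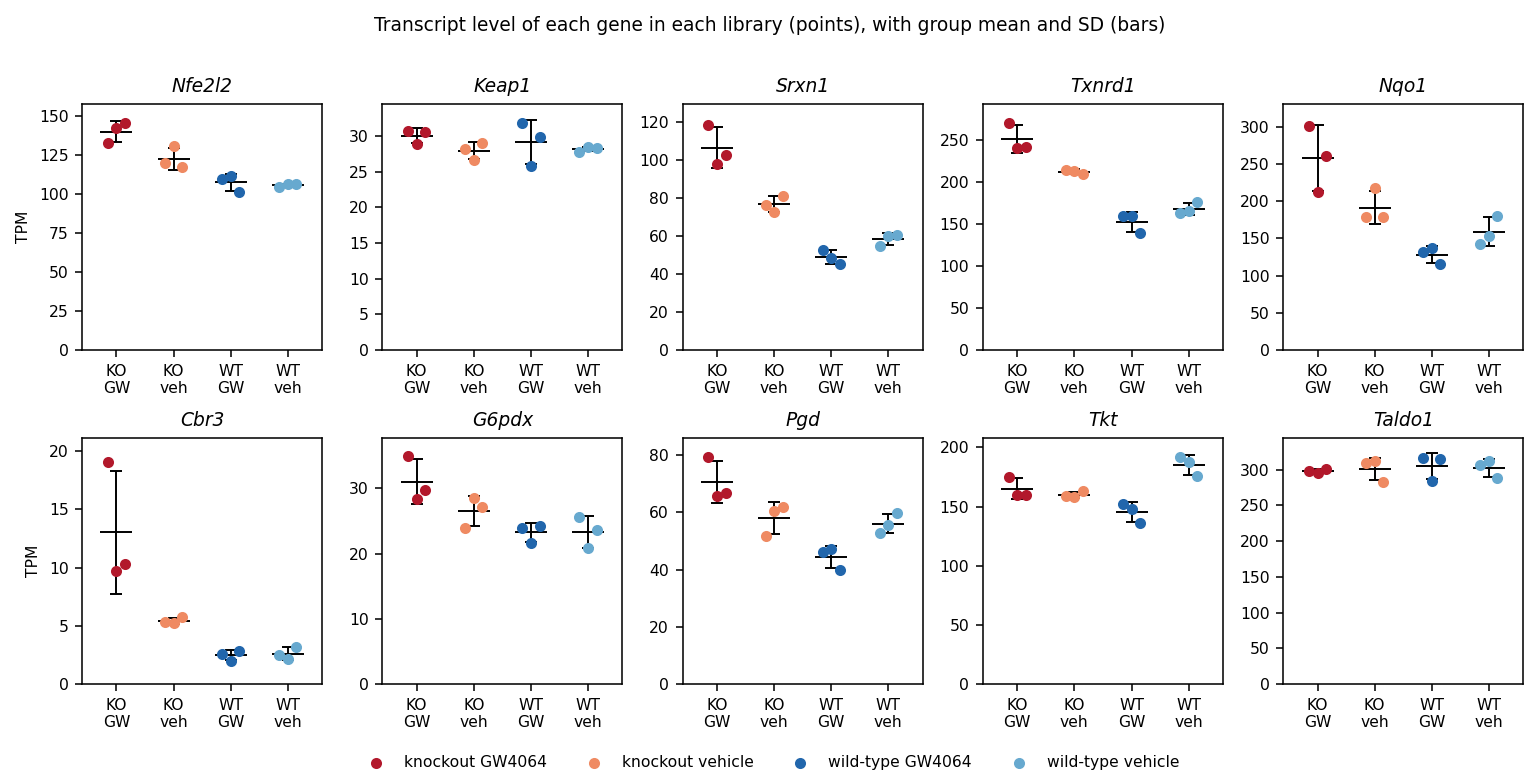
TPM (vertical axis, from 0) of each of the 10 genes in the 12 libraries, by group (KO, knockout; WT, wild type; GW, GW4064; veh, vehicle); points are libraries, and horizontal marks and bars are the mean and SD of 3. In Srxn1 and Txnrd1 the 6 knockout points lie above the 6 wild-type points, as in 3.06% of all genes, while Keap1 and Taldo1 are level across the groups.

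The regulator and its inhibitor differed from each other. Nfe2l2 (Entrez Gene 18024, chr2:75675513-75704663, minus strand) measured 133, 142 and 145 TPM in knockout GW4064 and 119.6, 131 and 117 TPM in knockout vehicle libraries. It measured 109.6, 112 and 101 TPM in wild-type GW4064 and 105, 106 and 106 TPM in wild-type vehicle libraries. The 6 knockout libraries were thus all above the 6 wild-type ones, and those given GW4064 were the highest. Over all genes tested, 3.06% had all knockout libraries above and 7.65% had them below. The log2 difference between genotypes was 0.38 ± 0.05 (SE) under GW4064 and 0.21 ± 0.05 on vehicle (limma adjusted p = 0.000480 and 0.0258). The call on vehicle ended without knockout vehicle replicate 2 or any of the 3 wild-type vehicle replicates (adjusted p up to 0.0844). It ended too when the fat marker score entered the fit (0.0504) or the variance trend was dropped (0.0501). Keap1 (Entrez Gene 50868, chr9:21229730-21239332, minus strand) averaged 30.1 ± 1.04 TPM in knockout GW4064, 27.97 ± 1.19 in knockout vehicle, 29.2 ± 3.09 in wild-type GW4064 and 28.2 ± 0.337 TPM in wild-type vehicle libraries (SD, n = 3 each). The groups overlapped, and no comparison of Keap1 passed (limma adjusted p of 0.615 or higher in each of 7).

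The redox enzymes held the largest differences. Srxn1 encodes sulfiredoxin, which repairs overoxidised peroxiredoxins (Entrez Gene 76650, chr2:152105524-152111376, plus strand). It measured 119, 98.1 and 103 TPM in knockout GW4064 and 76.5, 73.0 and 81.3 TPM in knockout vehicle libraries. The wild-type libraries gave 52.7, 48.7 and 45.2 TPM with GW4064 and 55.1, 60.1 and 60.4 TPM on vehicle. The 4 groups did not overlap, with knockout GW4064 highest and wild-type GW4064 lowest. Between genotypes the log2 difference was 1.11 ± 0.08 under GW4064, 2.17-fold, and 0.39 ± 0.08 on vehicle (limma adjusted p = 3.78e-06 and 0.00945).

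Txnrd1 encodes the cytosolic thioredoxin reductase, which uses NADPH to reduce thioredoxin (Entrez Gene 50493, chr10:82833951-82897724, plus strand). It stood at 269.9, 241 and 242 TPM in knockout GW4064 and 215, 213 and 209 TPM in knockout vehicle libraries. Wild-type libraries held 159, 160.0 and 139 TPM with GW4064 and 164, 165 and 177 TPM on vehicle. The order of the groups was that of Srxn1, again without overlap. The genotype difference was 0.71 ± 0.06 under GW4064 and 0.33 ± 0.06 on vehicle (log2, limma adjusted p = 1.34e-05 and 0.00627). Eid3 lies on the same strand within the Txnrd1 interval (9.15 to 21.8 TPM), and how reads there were shared is not given in the sources used here.

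Nqo1 is the quinone reductase used most often as a readout of NRF2 (Entrez Gene 18104, chr8:107388225-107403205, minus strand). Its levels were 302, 213 and 261 TPM in knockout GW4064 and 178, 217 and 178 TPM in knockout vehicle libraries. Wild-type libraries had 132, 137 and 116 TPM with GW4064 and 143, 153 and 180 TPM on vehicle. The vehicle groups overlapped only through knockout replicates 1 and 3 and wild-type replicate 3, and the GW4064 groups stood apart. The genotype difference was 1.00 ± 0.13 under GW4064 (log2, limma adjusted p = 0.000268) and 0.27 ± 0.13 on vehicle, which did not pass (adjusted p = 0.182).

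Cbr3, a carbonyl reductase and the least abundant of the 10 (Entrez Gene 109857, chr16:93683219-93690991, plus strand), showed the widest range. It measured 19.1, 9.70 and 10.3 TPM in knockout GW4064 and 5.32, 5.24 and 5.74 TPM in knockout vehicle libraries. Wild-type libraries held 2.56, 2.005 and 2.85 TPM with GW4064 and 2.51, 2.12 and 3.21 TPM on vehicle. All 6 knockout libraries lay above all 6 wild-type libraries, as in 3.06% of all genes, while the wild-type groups overlapped. The genotype difference of log2(TPM + 0.5) was 2.13 ± 0.23 under GW4064 and 0.94 ± 0.23 on vehicle (limma adjusted p = 7.02e-05 and 0.0208). Its deposited coverage, the average read depth per base, was 2.44 to 23.4. Its call on vehicle ended without any of the 3 knockout vehicle replicates or wild-type vehicle replicate 1 or 2 (adjusted p up to 0.0628).

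The enzymes of the pentose phosphate pathway differed in pattern. G6pdx and Pgd encode the dehydrogenases of the oxidative branch, which release NADPH, and Tkt and Taldo1 encode transketolase and transaldolase of the non-oxidative branch, which return pentoses to glycolysis. Pgd (Entrez Gene 110208, chr4:149149985-149166707, minus strand) measured 79.2, 65.9 and 66.8 TPM in knockout GW4064 and 51.6, 60.6 and 61.8 TPM in knockout vehicle libraries. It measured 46.3, 47.2 and 40.0 TPM in wild-type GW4064 and 52.9, 55.6 and 59.6 TPM in wild-type vehicle libraries. The vehicle groups of both genotypes overlapped, with knockout GW4064 above and wild-type GW4064 below them. The genotype difference was 0.66 ± 0.09 under GW4064 (log2, limma adjusted p = 0.000495) and 0.05 ± 0.09 on vehicle (adjusted p = 0.769).

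G6pdx (Entrez Gene 14381, chrX:74409486-74429161, minus strand) measured 34.9, 28.4 and 29.7 TPM in knockout GW4064 and 24.0, 28.5 and 27.2 TPM in knockout vehicle libraries. Wild-type libraries ranged from 21.6 to 24.2 TPM with GW4064 and from 20.8 to 25.7 TPM on vehicle. Its knockout GW4064 libraries were above both wild-type groups but overlapped knockout vehicle. The genotype difference was 0.40 ± 0.10 under GW4064 (log2, limma adjusted p = 0.0152) and 0.18 ± 0.10 on vehicle (adjusted p = 0.235). The first call ended without knockout GW4064 replicate 1 or wild-type GW4064 replicate 2 (adjusted p up to 0.0594). Ikbkg covers the same interval on the opposite strand at 27.5 to 35.9 TPM, and although the library kit was stranded, whether the counting used strand is not given in the sources used here. G6pd2, a near-identical copy, was listed at 0 in all 12 libraries.

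Tkt (Entrez Gene 21881, chr14:30549131-30574726, plus strand) was the exception among the enzymes. It measured 175, 160.1 and 159.8 TPM in knockout GW4064 and 158.5, 158 and 163 TPM in knockout vehicle libraries. It measured 152, 148 and 136 TPM in wild-type GW4064 and 192, 188 and 176 TPM in wild-type vehicle libraries. Wild-type vehicle was thus the highest group and wild-type GW4064 the lowest. The knockout was higher under GW4064 (0.18 ± 0.05) and lower on vehicle (-0.21 ± 0.05, log2, limma adjusted p = 0.0325 and 0.0243). The call under GW4064 ended without knockout GW4064 replicate 1 or wild-type GW4064 replicate 2 or 3 (adjusted p up to 0.117), without the variance trend (0.0638), with only the groups compared (0.0754) and with the fat marker score (0.0821). That on vehicle ended without knockout vehicle replicate 1 or 2 or wild-type vehicle replicate 1 or 2 (up to 0.0881), and with median-of-ratios scaling, where it was -0.12 (adjusted p = 0.178). Taldo1 (Entrez Gene 21351, chr7:141392160-141402976, plus strand) averaged 298 ± 2.505 TPM in knockout GW4064, 301 ± 15.8 in knockout vehicle, 305 ± 17.9 in wild-type GW4064 and 302 ± 12.6 TPM in wild-type vehicle libraries (SD, n = 3 each). It was the most abundant of the 10, its groups overlapped, and no comparison passed (limma adjusted p of 0.729 or higher in each of 7).

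**Figure D2:**
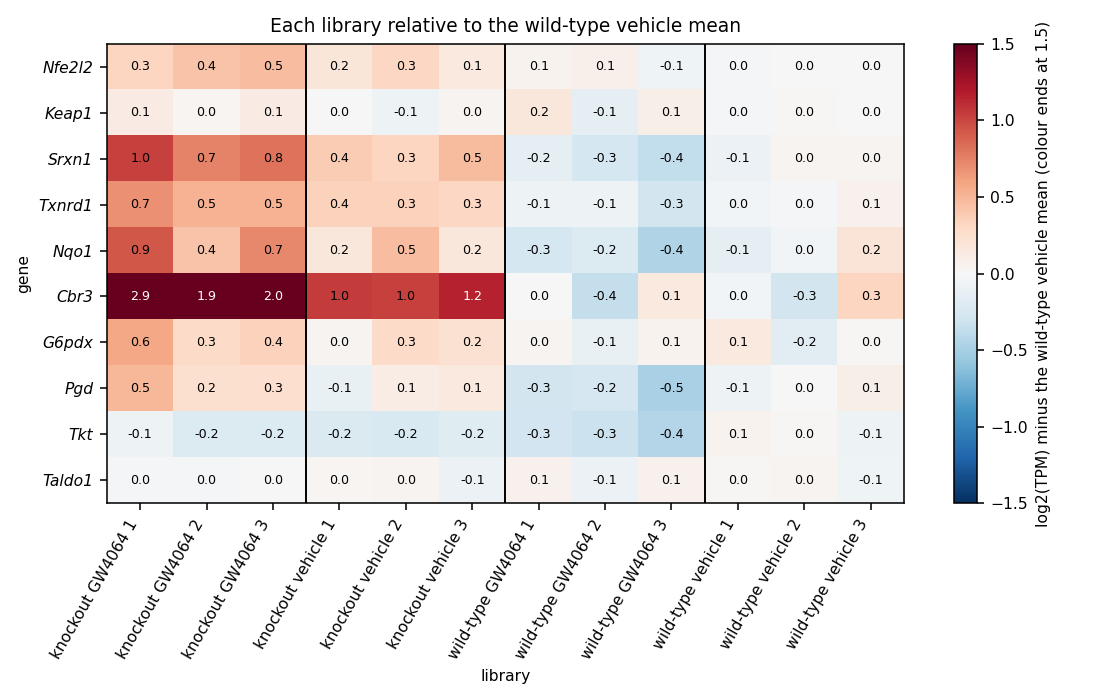
Each of the 12 libraries (columns, 3 per group) against the mean of wild-type vehicle for each of the 10 genes (rows), as a log2 difference of TPM; colour ends at 1.5. Red fills the knockout GW4064 columns for 7 rows, Nfe2l2, Srxn1, Txnrd1, Nqo1, Cbr3, G6pdx and Pgd, with the top value of 2.89 in Cbr3, and the wild-type GW4064 columns are mostly blue.

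The libraries within a group were not alike. Knockout GW4064 replicate 1 was the highest of the 12 libraries for 6 of the 10 genes (Srxn1, Txnrd1, Nqo1, Cbr3, G6pdx and Pgd), and wild-type GW4064 replicate 3 was the lowest for 6 (Nfe2l2, Srxn1, Txnrd1, Nqo1, Pgd and Tkt). Without knockout GW4064 replicate 1 the difference under GW4064 was still called for 6 of the 8 genes, all but G6pdx and Tkt.

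The next comparison was GW4064 against vehicle where the receptor gene is disrupted. Of the 10 genes, 9 had a positive log2 difference and 0 passed (limma adjusted p under 0.05). Over all genes 0.0138% were called, 2 in number, with 0.0069% higher and 0.0069% lower (0 higher and 1 lower with median-of-ratios scaling). At an unadjusted p under 0.05 there were 7 of the 10 genes and 1560 of all 14488. The median of the 10 was 0.23, that of all genes 0.02. Cbr3 had the largest value (1.12 ± 0.23, adjusted p = 0.157), followed by Srxn1 (0.47 ± 0.08, adjusted p = 0.130) and Nqo1 (0.43 ± 0.13, adjusted p = 0.274). In 5 genes (Nfe2l2, Srxn1, Txnrd1, Cbr3 and Pgd) the 3 GW4064 libraries lay above the 3 vehicle libraries, as in 8.78% of all genes. Srxn1 passed without knockout GW4064 replicate 2 (adjusted p = 0.0291), where 51 genes were called over all. Summed markers of the thick ascending limb (3 of 3 genes found, 4752 to 4984 TPM against 5057 to 5183 TPM on vehicle) and of principal cells (3 of 3, 249.7 to 287 against 295 to 327 TPM) were lower in the GW4064 libraries. Umod and Aqp2 again made the largest parts of these sums. The red blood cell markers (3 of 3) summed to 35.1, 34.6 and 1503 TPM against 27.1 to 33.5 TPM on vehicle, with only replicate 3 far above. The part of these shifts was not tested.

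With GW4064 in wild-type kidneys 1 of the 10 genes passed and 3 of 10 had a positive difference, with a median of -0.10 against -0.03 over all genes. Tkt fell, by 0.35 ± 0.05 on the log2 scale (limma adjusted p = 0.00264), with 4.8% of all genes called, 2.32% lower and 2.48% higher. With median-of-ratios scaling 453 genes were higher and 236 lower (360 and 336 as deposited). Pgd (-0.33 ± 0.09, adjusted p = 0.0703), Nqo1 (-0.30 ± 0.13, 0.219), Srxn1 (-0.26 ± 0.08, 0.0892) and Txnrd1 (-0.14 ± 0.06, 0.229) did not pass. In these 4 and Tkt the 3 GW4064 libraries lay below the 3 vehicle libraries, as in 16.7% of all genes. The other 5 genes lay between -0.06 (Cbr3) and 0.04 (Keap1), with Nfe2l2 at 0.02 ± 0.05 (adjusted p = 0.868). Without knockout GW4064 replicate 1, Srxn1 and Pgd passed too (adjusted p = 0.0439 and 0.0424). In the same libraries the summed proximal tubule markers (10 of 10 found) were 63989 to 69145 TPM with GW4064 against 55497 to 56268 TPM on vehicle. That sum is again mostly Kap and does not show the remaining proximal tubule markers. The principal cell markers (3 of 3) summed to 287 to 333 against 370.0 to 433 TPM. The urothelial markers (4 of 4, of which Upk2 and Krt5 were at 0 in 1 of the 12 libraries each) summed to 7.72 to 9.60 against 14.7 to 17.9 TPM. The podocyte markers (3 of 3) summed to 139 to 144 against 153 to 160.1 TPM, and those of macrophages and leukocytes (4 of 4) to 64.3 to 64.8 against 54.1 to 57.1 TPM. The part of these shifts was not tested.

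**Figure D3:**
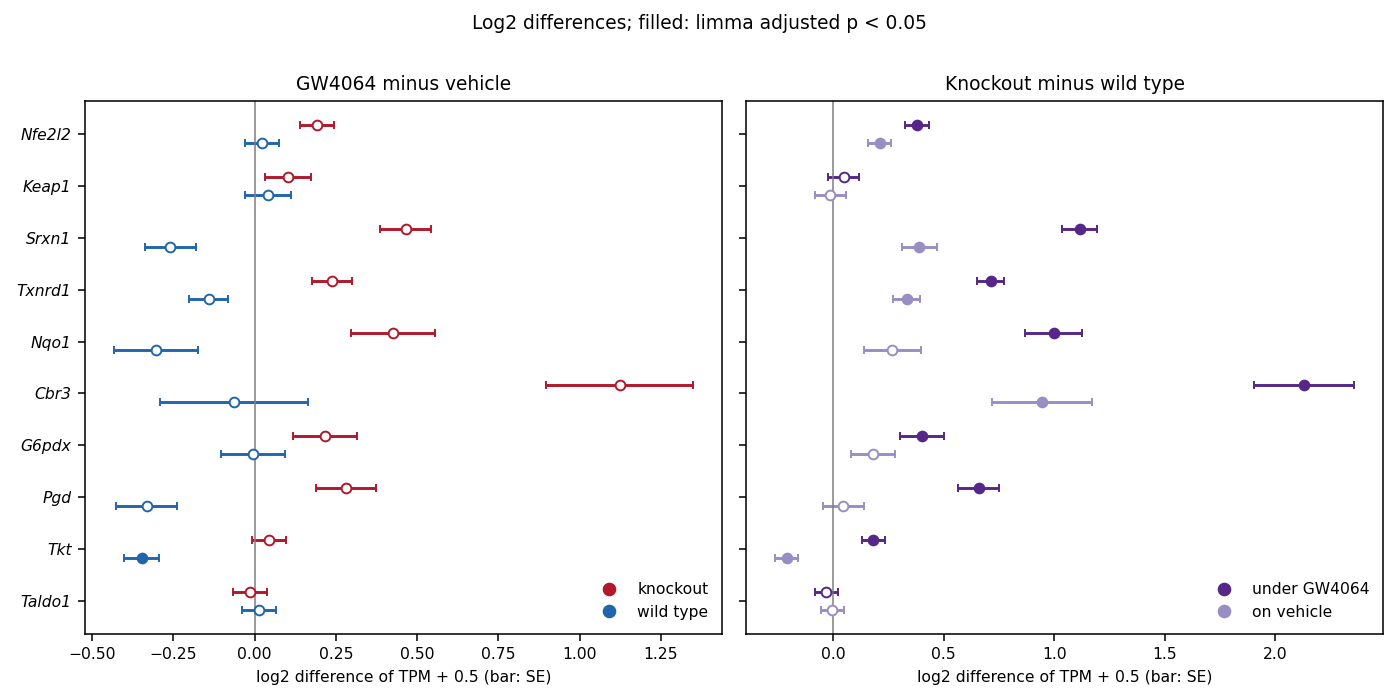
Log2 differences of TPM + 0.5 with SE (horizontal bars) for the 10 genes (rows), GW4064 minus vehicle in the knockout (above) and the wild type (below) at left, and knockout minus wild type under GW4064 (above) and on vehicle (below) at right; filled symbols passed limma at an adjusted p under 0.05. At left the knockout values lie to the right of the wild-type values for 9 genes, all but Taldo1, and at right 8 symbols are filled under GW4064.

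The response to GW4064 differed between the genotypes for 4 of the 10 genes, with 0 in the other direction. The interaction, the GW4064 effect in the knockout minus that in the wild type, was positive for Srxn1 (0.72 ± 0.11), Pgd (0.61 ± 0.13), Tkt (0.39 ± 0.07) and Txnrd1 (0.38 ± 0.09, log2, limma adjusted p = 0.00532, 0.0284, 0.0174 and 0.0383). Over all genes 1.47% had a positive interaction and 1.72% a negative one, and with median-of-ratios scaling 141 were positive and 346 negative (213 and 249 as deposited). Nqo1 (0.73 ± 0.18, adjusted p = 0.0549) and Cbr3 (1.19 ± 0.32, adjusted p = 0.0731) had values as large but did not pass. Of the 10 genes, 7 were higher with GW4064 in the knockout and lower in the wild type by the sign of the estimate, as were 36.1% of all genes tested. Among the 7, the wild-type values of G6pdx (-0.004 ± 0.10) and Cbr3 (-0.06 ± 0.23) were near 0. Their signs changed in 4 and 2 of 21 alternatives. Tkt was near 0 in the knockout (0.05 ± 0.05). Averaged over both genotypes, 0 of the 10 genes passed for GW4064 (limma), against 1.7% of all genes (1.08% higher), with 3 of 10 at an unadjusted p under 0.05 and 1801 of all.

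The interaction of Srxn1 passed without any single library and with every other setting run. Tkt lost it only when the fat marker score entered the fit (adjusted p = 0.0662). That covariate left Srxn1 alone called (0.68 ± 0.12, adjusted p = 0.0283), with Pgd at 0.57 (adjusted p = 0.105) and Txnrd1 at 0.35 (0.131). Pgd lost its call without knockout GW4064 replicate 1, knockout vehicle replicate 1, wild-type GW4064 replicate 1 or 3, or wild-type vehicle replicate 2 or 3 (up to 0.0787). Txnrd1 lost it without any of 10 libraries, all but replicate 2 of knockout GW4064 and of wild-type GW4064 (up to 0.0984), and also when low genes were kept (0.0554) or median-of-ratios scaling was used (0.0644). Without the variance trend Txnrd1 and Pgd were at 0.0794 and 0.0569. With the replicate number of the labels as a block, Txnrd1 and Pgd were at 0.0511 and 0.0554, and 2 of the 4 remained called, Srxn1 and Tkt. Nqo1 passed without knockout GW4064 replicate 2 or knockout vehicle replicate 2, and Cbr3 without knockout GW4064 replicate 2 (adjusted p down to 0.0178 and 0.0461). With all libraries and a filter of 5 TPM Nqo1 passed as well (0.0457), which made 5 genes, and 3 were called with low genes kept or with median-of-ratios scaling.

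**Figure D4:**
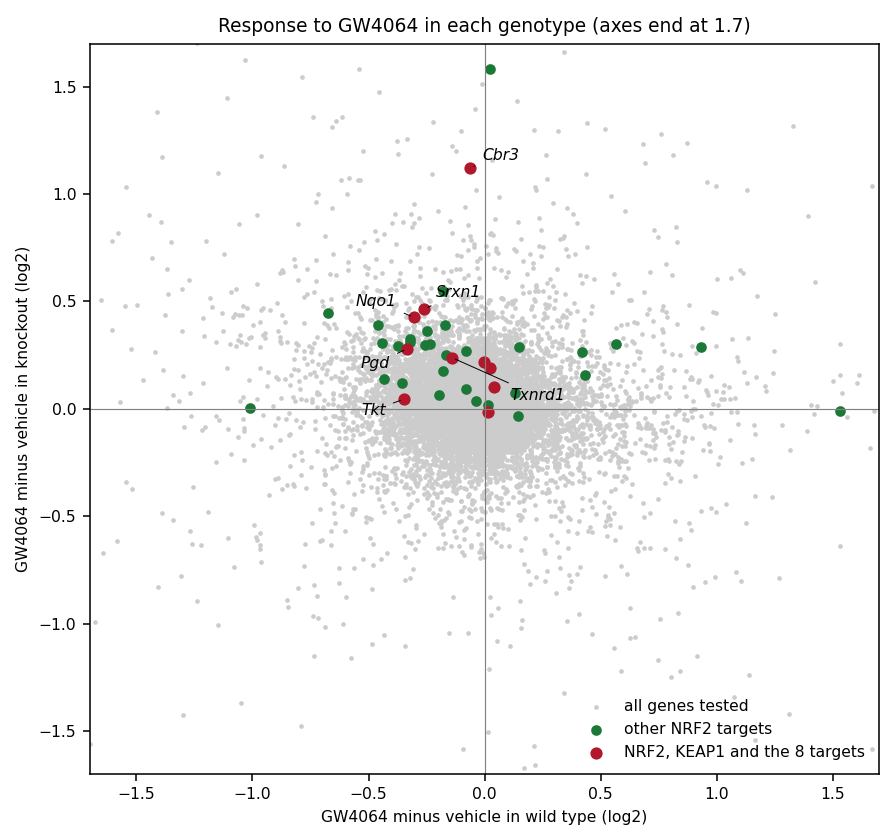
Log2 difference of GW4064 minus vehicle in the knockout (vertical axis) and in the wild type (horizontal axis), with each point 1 gene: grey, 14488 genes tested (61 lie outside the axes, which end at 1.7); green, 31 other NRF2 targets; red, the 10 genes described here. Of the red points, 7 lie at the upper left, positive in the knockout and negative in the wild type, and of the green points 20 do.

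Other genes of the pathway were counted from lists written from general knowledge, with earlier results of these data known. The counts are therefore descriptions and not independent evidence. Of 33 other NRF2 targets 31 were tested, all but Slc7a11 and Gpx2. Under GW4064, 13 were higher in the knockout and 3 lower, with a median log2 difference of 0.30 (7.08% and 11.4% of all genes). On vehicle 4 were higher and 2 lower, with a median of -0.01 (3.19% and 9.73% of all genes). With GW4064 in the knockout 0 passed and the median was 0.29, and in the wild type 5 rose and 5 fell with a median of -0.17 (2.48% and 2.32% of all genes). The interaction was positive and called for 7 and negative for 0 (1.47% and 1.72% of all genes), with a median of 0.42 against 0.05 over all genes. By sign, 20 of the 31 were higher in the knockout and lower in the wild type with GW4064, which is 64.5%, against 36.1% of all genes.

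The NRF2 targets did not move as a block. Gstp1, a glutathione transferase, averaged 337 TPM in knockout GW4064 and 194 TPM in wild-type GW4064 libraries (log2 0.79 ± 0.06), and Mgst1, a membrane-bound glutathione transferase, 271 and 136 TPM (0.98 ± 0.10, limma adjusted p = 4.32e-06 and 6.87e-05). Gclm, the modifier subunit of glutathione synthesis, and Gsr, glutathione reductase, rose with GW4064 in the wild type, by 0.43 ± 0.05 and 0.42 ± 0.06 (adjusted p = 0.000763 and 0.00226). Under GW4064, Gsr was lower in the knockout (-0.37 ± 0.06, 221 against 285 TPM, adjusted p = 0.00170). So was Osgin1, an oxidative stress-induced growth inhibitor (-1.68 ± 0.27, 35.4 against 118 TPM, adjusted p = 0.00140). Abcc4, an efflux pump for organic anions, fell with GW4064 in the wild type (-0.68 ± 0.12, adjusted p = 0.00671) and had an interaction of 1.12 ± 0.17 (adjusted p = 0.00492), and Ugdh, which makes UDP-glucuronate, fell by 0.32 ± 0.05 with an interaction of 0.63 ± 0.08 (adjusted p = 0.00565 and 0.00168).

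Of 12 regulators of KEAP1 and NRF2, 4 were higher and 2 lower in the knockout under GW4064, and 2 were higher and 1 lower on vehicle. The shares of all genes were 7.08% and 11.4% under GW4064 and 3.19% and 9.73% on vehicle. Mafg, a small MAF partner of NRF2 on DNA, rose with GW4064 in the wild type to 92.4 TPM, against 49.5 TPM on vehicle (log2 0.89 ± 0.07, adjusted p = 3.26e-05). In the knockout Mafg averaged 54.6 TPM with GW4064 and 49.2 TPM on vehicle, and its interaction was -0.74 ± 0.10 (adjusted p = 0.00257). Maff, another small MAF gene, was higher in the knockout under GW4064 (0.91 ± 0.15, 8.21 against 4.08 TPM, adjusted p = 0.00162). Sqstm1, whose protein binds KEAP1 and delivers it to autophagy, was higher in the knockout in both settings, by 0.39 ± 0.06 under GW4064 and 0.36 ± 0.06 on vehicle (limma adjusted p = 0.000871 and 0.00330).

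Other genes of NADPH and thioredoxin metabolism were called in both directions, to be read against the same shares of all genes. Of 8 other pentose phosphate genes, 2 were higher in the knockout under GW4064 and 0 lower. H6pd, the hexose-6-phosphate dehydrogenase of the endoplasmic reticulum, averaged 229 TPM against 160 TPM in the wild type (0.52 ± 0.07, adjusted p = 0.000577), and Prps1, which makes phosphoribosyl pyrophosphate, was higher by 0.25 ± 0.07 (adjusted p = 0.0232). Of 14 other thioredoxin system genes, 1 was higher and 3 lower under GW4064, and 1 was higher and 0 lower on vehicle. The one that was higher was Sesn2, a stress-induced sestrin, by 0.96 ± 0.10 under GW4064 and 0.82 ± 0.10 on vehicle (adjusted p = 5.87e-05 and 0.000634). Of 7 other NADPH-producing genes, 0 were higher and 2 lower in the knockout under GW4064. Nnt, the mitochondrial transhydrogenase, averaged 118 TPM against 276 TPM in the wild type (-1.22 ± 0.04), and Idh1, the cytosolic isocitrate dehydrogenase, 455 against 558 TPM (-0.29 ± 0.05, limma adjusted p = 1.35e-08 and 0.00319). Nnt is known to differ between C57BL/6 substrains, and the disrupted Nr1h4 and any other difference between the strains cannot be told apart in these libraries.

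Likeness of pattern was measured as the root mean square difference of z-scored log2 values over the 12 libraries, which share depth and scaling within a library. Among 10969 other genes with a mean of at least 5 TPM, the nearest to Srxn1 were Gstp2 (0.219), Gstp1 (0.220), Deptor (0.226), Mgst1 (0.280) and Acsl3 (0.296). Gstp1 and Gstp2 are near-identical copies, and how their shared reads were split is uncertain. Txnrd1 was nearer to Srxn1 (0.186) than any of these, and Cbr3 (0.308) and Nqo1 (0.332) were close behind, while Taldo1 was farthest of the 10 (1.58). The nearest to Nfe2l2 were Acot12 (0.269), Dusp4 (0.275), Plekho1 (0.297), Tmed5 (0.312) and Insr (0.313). Of the other 9 genes Txnrd1 was nearest to Nfe2l2 (0.434), followed by Srxn1 (0.490).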

How the data were processed

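Kidney total RNA, in 12 libraries, was prepared with a stranded total RNA kit, per the labels. The submitters' processing notes list HISAT2, StringTie, Cufflinks and mm10, without versions, roles or annotation. The authors deposited per gene the TPM (scaled to 1000000 per library), FPKM (a constant multiple of TPM within a library) and coverage signal. The median over genes of the ratio of the deposited coverage to FPKM gave the mapped bases of each library. Nfe2l2 and Txnrd1 had less coverage for their TPM than the rest of the 10 genes. Coverage was 17.7 to 32.3 at 101 to 145 TPM for Nfe2l2 and 36.7 to 70.7 at 139 to 270 TPM for Txnrd1. For Keap1 it was 26.3 to 41.3 at 25.8 to 31.8 TPM. For Nfe2l2 and Txnrd1, TPM and coverage thus give unlike levels, and their differences between groups were not checked on coverage. The cause was not tested. No read counts were used here. Entries of 1 identifier were summed, and 24462 of 24532 identifiers had a RefSeq symbol (GRCm38.p6). Coordinates of genes are those deposited.

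Genes reaching 1 TPM in 3 or more libraries (14488) were fitted as log2(TPM + 0.5) with limma 3.58.1 in R 4.3.3, with 1 mean per group, all 12 libraries and a variance trend. The 7 comparisons were Benjamini-Hochberg adjusted over all genes tested, and called at 0.05. With 3 libraries a group, exact two-sided permutation p-values stop at 0.1, so none was used. Errors are SD beside TPM and SE beside log2 values. The fit was tested on simulated data, in 5 runs with 200 changed genes for each comparison. The simulated noise was normal and independent between genes, with the spread of each gene in these data. A log2 change of 0.5 was called in 53.7% to 59.2% of cases between 2 groups and 39.0% for the interaction. For a change of 1 these were 83.4% to 88.9% and 74.1%. An adjusted p depends on how many genes change, so these rates hold for 200 changed genes only. For GW4064 in the knockout, where 2 genes were called in the data, they do not show the power. Of the calls, 3.78% to 6.94% fell on unchanged genes over the 7 comparisons. The genes and lists were chosen with earlier results of these data known. Named genes were the 10, up to 2 called genes of lowest p per list, direction and comparison, and the 5 nearest in pattern to Nfe2l2 and Srxn1. Alternatives were other pseudocounts, filters, scaling, no variance trend, fewer groups, a replicate block, a fat marker covariate and leaving out each library.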

Additional observations from a re-analysis of the deposited data

Results flagged for a closer look

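The response to GW4064 differed between the genotypes, by the interaction term of limma, for 4 of the 10 genes. Over all genes 3.19% were called, 1.47% positive and 1.72% negative. Of 20 alternatives, the call was lost in 15 for Txnrd1, 9 for Pgd, 1 for Tkt and 0 for Srxn1. The GW4064 effect in the knockout minus that in the wild type was 0.72 for Srxn1, 0.38 for Txnrd1, 0.61 for Pgd and 0.39 for Tkt on the log2 scale. In Srxn1, Txnrd1 and Pgd the 3 GW4064 libraries lay above the 3 vehicle libraries in the knockout and below them in the wild type. Over all genes, each counted by itself, 8.78% lay above in the knockout and 16.7% below in the wild type. The share of genes with both was not counted. These genes were picked for a called interaction, so the pattern is not separate evidence. In Tkt the GW4064 and vehicle libraries overlapped in the knockout, and those with GW4064 lay below in the wild type.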

How the results depend on the processing

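Of 25 called differences of single genes, 17 stayed called in each of the 20 or 21 alternatives run. The count of genes with a called interaction, 4, was 2 with the replicate block, 2 without the variance trend, 1 with the fat marker score and 2 to 6 when a library was left out. Over all genes the called interactions were 462 in the fit as described, 442 with the block, 349 without the trend and 207 with the fat marker score. They were 216 to 535 when a library was left out. For GW4064 in the wild type the count of 1 was 2 when only the groups compared were fitted, and 1 to 3 when a library was left out. Over all genes these counts were 696, 791 and 334 to 768. Leaving out a library gave 0 to 1 for GW4064 in the knockout (0 with all), 2 to 5 for the genotypes on vehicle (5), 6 to 8 under GW4064 (8), 7 for the genotype average (7) and 0 to 1 for the GW4064 average (0). Over all genes the same counts, in this order, were 0 to 51 (2 with all), 926 to 1903 (1872), 1726 to 2760 (2677), 3037 to 3565 (3838) and 135 to 278 (246). The cause was not tested.

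No called value changed sign. Values near 0 did in 40 cases, none called. With median-of-ratios scaling these were G6pdx for GW4064 in the wild type (0.0274), and knockout against wild type in Keap1 on vehicle (0.0720), Taldo1 on vehicle, under GW4064 and on average (0.0809, 0.00273 and 0.0418) and Tkt on average (0.0460). With the fat marker score they were Taldo1 in the knockout (0.00954), in the wild type (-0.0387), on average (-0.0146) and in the interaction (0.0482) for GW4064, and between genotypes under GW4064 (0.0143). Leaving out a library moved, for GW4064 in the wild type, Nfe2l2 from -0.00606 to 0.0657, Keap1 from -0.0215 to 0.128, Cbr3 from -0.179 to 0.0727, G6pdx from -0.0836 to 0.0647 and Taldo1 from -0.0204 to 0.0635. It moved Taldo1 from -0.0572 to 0.0119 in the knockout, from -0.0216 to 0.0252 for the GW4064 average and from -0.0765 to 0.00734 in the interaction, and between genotypes from -0.0390 to 0.0395 on vehicle and from -0.0429 to 0.00394 on average. Keap1 ranged from -0.0378 to 0.0215 on vehicle, from -0.0372 to 0.112 under GW4064, from -0.0247 to 0.0501 on average and from -0.0251 to 0.124 in the interaction. Pgd ranged from -0.00141 to 0.128 on vehicle and from -0.0682 to 0.0108 for the GW4064 average, and Tkt from -0.0371 to 0.00244 for the genotype average.

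Libraries of the same replicate number did not deviate together (correlations of deviations from -0.07 to 0.08 over 18 pairs, 0 above 0.1), so the number is not taken to pair them, and 3 of 12 libraries were nearest to their own number. Depth limits Cbr3 most, at a coverage of 2.44 reads per base in its lowest library.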
